A study of Mus musculus with 12 samples.

Results

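The Bcl2 family and its partner Apaf1 were read across wild-type and Rb-deficient mouse embryonic fibroblasts (MEFs). The members were 8 named genes: Bcl2, Bcl2l1 and Mcl1, which protect the cell, Bcl2l11 (Bim), Bbc3 (Puma), Pmaip1 (Noxa) and Bax, which promote death, and Apaf1. A probe set carried the symbol of 7 of them, out of 18193 genes with a probe set of 1 gene symbol. Where a gene had several probe sets, the brightest on average across the series was taken. No probe set carried the symbol Bax in the annotation used, and Bax was not analysed here.

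RNA was collected from MEFs in exponential growth, without treatment, and each of 4 groups was hybridised to 3 Affymetrix MOE430 2.0 arrays. WT MEFs carried no deletion, and Rb1KO MEFs were labelled with an Rb1 deletion. TKO MEFs were labelled with deletions of Rb1, p107 (gene Rbl1) and p130 (gene Rbl2), and TKO-Ras MEFs with the same deletions plus the Ras mutation G12D. The TKO cells came originally from another laboratory. The Ras gene, its promoter, the embryos' age and any cloning were not given in the sources used here. Arrays of a group are labelled as biological replicates, without a statement that embryos or cultures were separate, and the p-values thus measure the spread between these samples, which may be technical. The series describes the groups as cell lines, so genotype and line cannot be told apart.

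Cells commit to the mitochondrial route of apoptosis when Bax or its relative Bak1 permeabilises the outer mitochondrial membrane. Bcl2, Bcl2l1 (Bcl-xL) and Mcl1 bind and restrain these effectors, and the BH3-only proteins Bcl2l11, Bbc3 and Pmaip1 neutralise the pro-survival proteins. Released cytochrome c then assembles with Apaf1 into the apoptosome, which activates caspase-9. Apaf1 and several BH3-only genes are known targets of E2F or p53, and E2F factors are the proteins that pRb, p107 and p130 restrain.

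The values are log2 signals normalised by RMA, a method that corrects background and sums the probes of a probe set. They compare 1 gene between groups and not 1 gene with another, because each probe set has its own affinity. A difference passed the test at an adjusted p under 0.05 by limma, adjusted over 45037 probe sets. All 7 members measured were above the background level of 5.13, below which 95% of 44 probe sets for olfactory receptors lay, on all 12 arrays.

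Some features of the arrays touch the values below. WT replicate 3 stood apart, with a mean correlation of 0.974 to the other WT arrays, while correlations within the other groups ranged from 0.990 to 0.996. Member differences from WT that moved most without this array are also given without it. Rb1 averaged 8.50 in WT and between 7.14 and 7.58 in the deleted groups, and Rbl1 was at background in TKO and TKO-Ras. Rb1 stayed above background on every array of the deleted groups, so its level alone does not show the deletion. Rbl2 averaged 7.72 in WT, 5.45 in TKO and 5.03 in TKO-Ras, but also 4.18 on the arrays labelled Rb1KO, although their label names an Rb1 deletion and no other. The arrays labelled Rb1KO are therefore not shown to lack Rb1 alone. Of 10 fibroblast markers, between 8 and 10 were above background on all arrays of a group. Their mean over the list was 10.96 to 12.02 in WT, 10.4 to 10.6 in Rb1KO, 10.4 to 11.2 in TKO and 9.67 to 9.74 in TKO-Ras. Thy1 fell furthest on this list, from 10.83 in WT to 6.43 in Rb1KO, 4.73 in TKO and 4.81 in TKO-Ras. It was at background in TKO and TKO-Ras. The list was mixed in TKO against WT, where 5 genes passed as lower and 1, Dcn, as higher (log2 difference 2.20). Col3a1 (0.62), Pdgfra (0.25) and Lum (2.53) also had higher means in TKO but did not pass. The part of these fibroblast marker differences in the results below was not tested. The leukocyte genes Ptprc, Adgre1 and Itgam and the muscle factors Myod1, Myog and Myf5 were at background in each group. On the same leukocyte list of 8, 3 genes were higher in TKO than in WT: Cd14 (7.80 against 6.55), Cd68 (5.97 against 5.02) and Cd74 (6.14 against 5.53). None passed as lower, but Lyz2 (5.11 against 5.70) and Csf1r (6.21 against 6.49) had lower means in TKO. Among all genes, 13.6% were called higher in this comparison. On the neural list, Sox2 averaged 4.13 in WT, 8.95 in TKO and 9.70 in TKO-Ras, while Map2 averaged 10.39, 3.64 and 4.33 in the same groups and 8.26 in Rb1KO. The epithelial gene Krt19 averaged 7.38 in WT, with arrays from 5.11 to 9.09, and 10.48 in TKO-Ras. On that list of 8, 2 genes passed as higher in TKO-Ras than in WT and none as lower. Cdh1, Krt18, Krt14 and Cldn4 were at background in each group, and Epcam averaged 6.98 in WT and 6.54 in TKO-Ras. The part of these marker differences in the results below was not tested. In such bulk RNA, fewer cells of a type and less RNA per cell cannot be told apart.

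Promoter sequence is shown for the stretches that hold a motif for E2F or for FOXO factors, the families searched because E2F is the partner of the deleted proteins and FOXO factors are known regulators of Bcl2l11 and Bbc3. Windows of 300 bases around RefSeq gene starts (GRCm38.p6, 250 bases upstream and 50 downstream) were at hand for 7 members, 12 windows in all. They covered Apaf1, Bcl2, Bcl2l1, Bcl2l11, Mcl1, Bax and Bbc3, and not Pmaip1. The E2F search used TTTGGCGC, TTTCGCGC, TTTGCCGC and TTTCCCGC, and the FOXO search TGTTTAC, both on either strand. The capitals mark the match, each sequence reads 5′ to 3′ along the gene, and a capital stretch that differs from the letters above is a match on the other strand.
Bcl2l1, E2F, chr2:152830844-152830873, minus strand: tccgcgtccctGCGCGAAAccttgagattc
Bcl2l11, FOXO, chr2:128125788-128125852, plus strand: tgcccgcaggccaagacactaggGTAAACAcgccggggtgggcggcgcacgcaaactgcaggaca
Bbc3, FOXO, chr7:16310083-16310111, plus strand: tctggcgggttTGTTTACaaacaatgggg

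The matches lay at bases -145 to -138 from a start of Bcl2l1, -227 to -221 from a start of Bcl2l11 and -167 to -161 from a start of Bbc3. Among 32851 windows, 2.26% held an E2F match and 3.65% a FOXO match. The windows of Apaf1, Bcl2 and Mcl1 held neither set of letters. A half-site of p53, searched by its known consensus, was in 8.36% of all windows and in the window of Bax among the members. These matches describe the sequence and not whether a factor binds there.

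Bcl2, the founding pro-survival protein of the family, was lower in TKO than in WT or Rb1KO cells. Its values were 8.26, 8.23 and 8.06 on the WT arrays, 8.59, 8.27 and 7.998 in Rb1KO, 7.54, 7.34 and 7.68 in TKO and 7.87, 7.74 and 7.81 in TKO-Ras. The WT and Rb1KO arrays overlapped, all TKO arrays lay below them, and the TKO-Ras arrays lay in between. The TKO level was 1.59-fold lower than in WT (log2 difference -0.67, SE 0.14, limma adjusted p = 0.00728) and 1.70-fold lower than in Rb1KO (-0.77, SE 0.14, adjusted p = 0.00739). Both calls held whichever array was left out, with differences from -0.75 to -0.58 and from -0.91 to -0.61. TKO-Ras was not separated from TKO by the test (0.29, adjusted p = 0.314) or from WT (-0.38, adjusted p = 0.0737), although its arrays overlapped with neither. Of the 5 probe sets of Bcl2, 1457687_at and 1437122_at passed in TKO against WT and against Rb1KO, both lower. Probe set 1422938_at was above background on every array and did not pass. Its differences in TKO were -0.24 against WT (limma adjusted p = 0.171) and -0.06 against Rb1KO (adjusted p = 0.837). Another 2, 1440770_at and 1443837_x_at, were below background on each array, so they carry no measured level. Averaging all 5 probe sets into 1 value, the calls against WT (-0.38, adjusted p = 0.0643) and against Rb1KO (-0.37, adjusted p = 0.133) were lost.

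Bcl2l1, which encodes the pro-survival protein Bcl-xL, stood highest in TKO-Ras. Its values were 9.20, 9.44 and 8.30 in WT, 9.09, 9.60 and 8.91 in Rb1KO, 9.27, 9.02 and 9.14 in TKO and 10.05, 10.12 and 9.72 in TKO-Ras. Every TKO-Ras array lay above every other array, and the other 3 groups overlapped. TKO-Ras was 1.98-fold higher than WT (0.99, SE 0.27, limma adjusted p = 0.0168). The difference between TKO-Ras and TKO, 0.82 with a 95% interval of 0.24 to 1.40, did not pass with the spread of all 12 arrays (adjusted p = 0.108). It passed without WT replicate 3 (adjusted p = 0.0131), a choice made after seeing the data, and when only the TKO and TKO-Ras arrays were fitted (adjusted p = 0.0125). The call against WT was kept without WT replicate 3 (0.65, adjusted p = 0.0294) and lost without TKO-Ras replicate 1 (0.94, adjusted p = 0.0522) or replicate 2 (0.90, adjusted p = 0.0564). It was also lost when only the WT and TKO-Ras arrays were fitted (adjusted p = 0.0613). Of the other 3 probe sets of Bcl2l1, none was above background on all arrays of WT. One of them, 1420887_a_at, passed in TKO-Ras against WT with group means of 5.69 and 4.90, of which the second lay below background, and the call thus rests on the probe set read for the gene. Between TKO and WT the difference was 0.17 with a 95% interval of -0.42 to 0.75, so a change of either sign was not detectable.

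Mcl1, a short-lived pro-survival protein, gave different answers from different probe sets. On 1448503_at, the probe set read for the gene, the values were 12.04, 11.99 and 12.31 in WT, 11.83, 12.29 and 11.97 in Rb1KO, 11.97, 11.97 and 11.69 in TKO and 11.95, 11.95 and 12.30 in TKO-Ras. The groups lay close together, and none of the 5 comparisons passed (limma adjusted p from 0.338 to 0.854). On 1437527_x_at the values were 11.21, 11.11 and 11.19 in WT, 10.41, 10.57 and 10.46 in Rb1KO, 9.997, 10.24 and 10.24 in TKO and 9.97, 9.31 and 10.51 in TKO-Ras. There, all WT arrays lay above all arrays of the deleted groups. Of the 6 probe sets of Mcl1, 5 were lower in TKO than in WT, with log2 differences from -1.01 to -0.50 and limma adjusted p from 0.00857 to 0.0126. Of the same 6, 4 were lower in TKO-Ras than in WT (-1.24 to -1.09), and 1, 1437527_x_at, was lower in Rb1KO (-0.69, adjusted p = 0.0486). Averaged over its 6 probe sets, Mcl1 was lower in TKO (-0.76, adjusted p = 0.0101) and in TKO-Ras (-0.81, adjusted p = 0.00520) than in WT. The rule for choosing a probe set thus decides whether Mcl1 is called, and which transcripts each probe set detects was not tested.

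**Figure D1:**
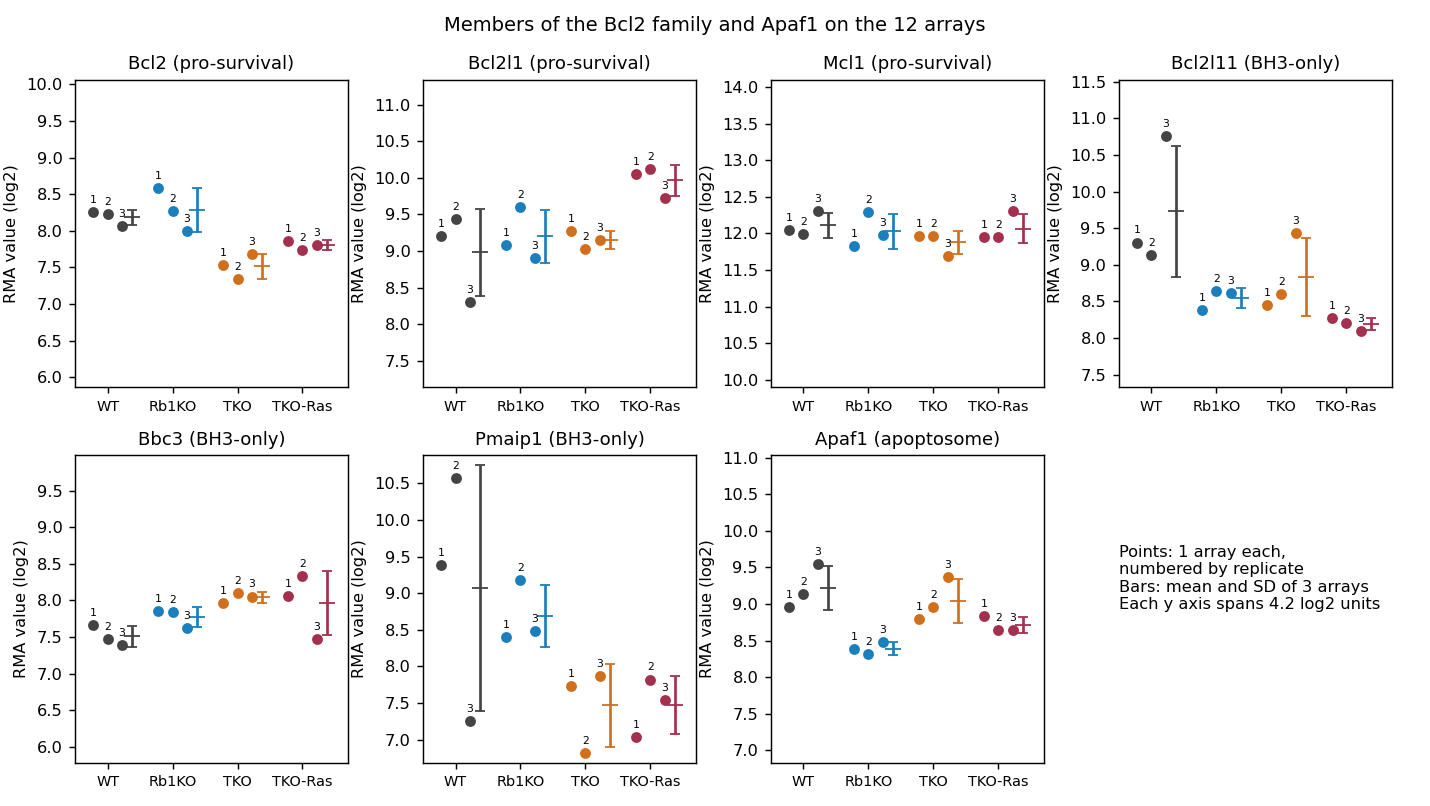
RMA log2 value (y axis) of the 7 measured members on each array, grouped by genotype (x axis), with points numbered by replicate and bars showing the mean and SD of 3 arrays; every y axis spans the same width. The TKO arrays lie lowest for Bcl2 (7.34 to 7.68), the TKO-Ras arrays highest for Bcl2l1 (9.72 to 10.12), and WT replicate 3 lies away from the other WT arrays for Bcl2l1, Bcl2l11 and Pmaip1.

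Bcl2l11 encodes Bim, a BH3-only protein that binds all the pro-survival members and is induced on loss of growth factors. The gene measured 9.30, 9.13 and 10.76 in WT, 8.39, 8.64 and 8.61 in Rb1KO, 8.46, 8.60 and 9.44 in TKO and 8.27, 8.21 and 8.10 in TKO-Ras. All WT arrays lay above all Rb1KO and TKO-Ras arrays, while TKO replicate 3 reached into the WT range. TKO-Ras was 2.91-fold lower than WT (-1.54, SE 0.37, limma adjusted p = 0.00900), and this call held whichever array was left out (-1.84 to -1.03). Rb1KO was 2.27-fold lower than WT (-1.18, SE 0.37, adjusted p = 0.0389). That call was lost without WT replicate 3 (-0.67, adjusted p = 0.0597) and without any 1 of the Rb1KO arrays (adjusted p = 0.0812 to 0.110). Altogether it was lost in 8 of 16 alternatives. TKO did not differ from WT beyond the spread (-0.90, adjusted p = 0.119, or -0.39 and 0.298 without WT replicate 3), nor TKO-Ras from TKO (-0.64, adjusted p = 0.391), although the arrays of the last pair did not overlap. Of its 5 probe sets, 3 were lower in TKO-Ras than in WT, and the other 2 had differences of -0.70 and -0.25. In Rb1KO against WT, 1 of the 5 passed, and the differences ran from -1.18 to -0.58. All 5 differed from WT in the negative direction in TKO, from -0.90 to -0.41, and none passed; WT replicate 3 was the highest WT array on each of them. Leaving out WT replicate 3, the fold in TKO-Ras was smaller but the difference still passed (-1.03, adjusted p = 0.00654).

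Bbc3, the BH3-only gene that encodes the p53 target Puma, had its highest mean in TKO. Its only probe set gave 7.67, 7.48 and 7.38 in WT, 7.85, 7.84 and 7.62 in Rb1KO, 7.96, 8.10 and 8.05 in TKO and 8.06, 8.33 and 7.48 in TKO-Ras. All TKO arrays lay above all WT and Rb1KO arrays, and TKO-Ras replicate 3 fell back to the WT range. The difference of TKO from WT was 0.53 with a 95% interval of 0.13 to 0.93 and did not pass (limma adjusted p = 0.0648). It lay near the threshold, and passed with the replicate block (adjusted p = 0.0425), with only the compared groups (0.0258), with centred arrays (0.0491) and with dim probe sets left out (0.0496). In the other 12 of 16 alternatives it did not pass (adjusted p up to 0.166), among them without WT replicate 3 (0.47, adjusted p = 0.138). TKO-Ras did not pass against WT (0.45, adjusted p = 0.0899), and passed in 1 of 16 alternatives, without TKO-Ras replicate 3 (0.69, adjusted p = 0.00403).

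Pmaip1 encodes Noxa, a small BH3-only protein that antagonises Mcl1, and it varied most within WT. Its single probe set gave 9.38, 10.57 and 7.26 in WT, 8.40, 9.18 and 8.48 in Rb1KO, 7.73, 6.82 and 7.86 in TKO and 7.04, 7.82 and 7.54 in TKO-Ras. WT replicates 1 and 2 lay above all the other arrays, whereas WT replicate 3 lay within the TKO range. With the 3 WT arrays, TKO and TKO-Ras were each 3.03-fold lower than WT by value (-1.60, SE 0.65) and neither passed (limma adjusted p = 0.114 and 0.0893). Leaving out WT replicate 3, the gene was lower in TKO (-2.50, adjusted p = 9.36e-04), in TKO-Ras (-2.51, adjusted p = 6.79e-04) and in Rb1KO (-1.28, adjusted p = 0.0370). This array decided the call, and no label sets it apart. TKO and TKO-Ras had nearly the same mean, 7.47 in each, with a 95% interval of their difference from -1.42 to 1.42. All TKO arrays lay below all Rb1KO arrays, but the difference of -1.22 did not pass (adjusted p = 0.330) unless only these 2 groups were fitted (adjusted p = 0.0444).

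**Figure D2:**
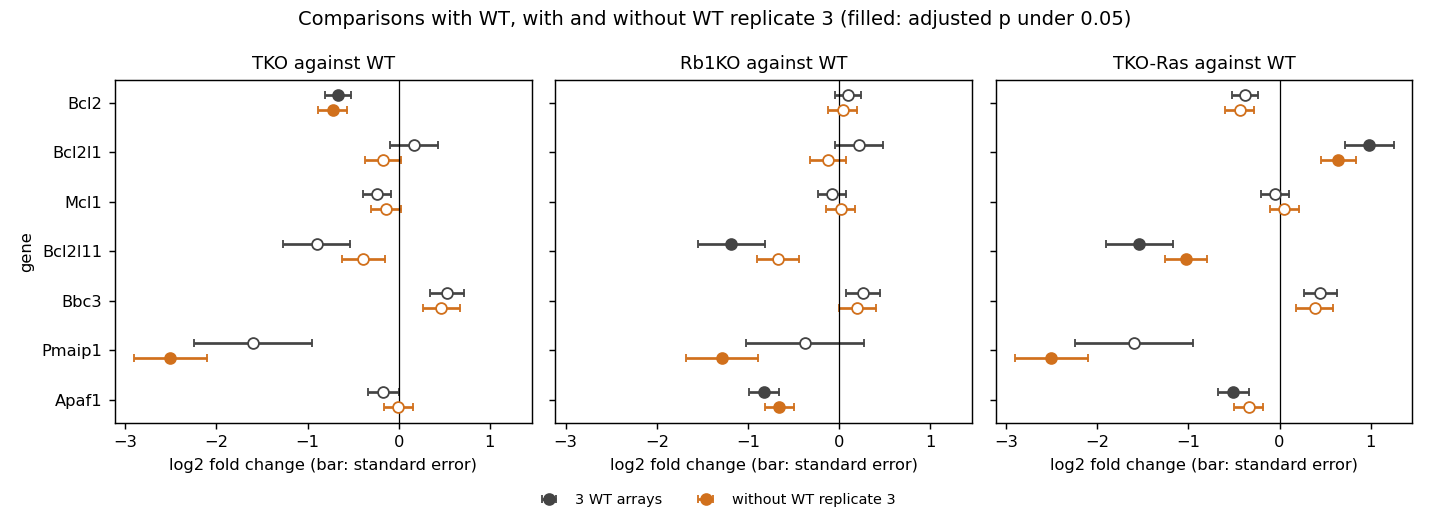
Log2 fold change (x axis, bars of 1 standard error) of each measured member (y axis) in TKO, Rb1KO and TKO-Ras against WT, with the 3 WT arrays (grey) and without WT replicate 3 (orange); filled points passed at an adjusted p under 0.05. Pmaip1 moves from -1.60 to -2.50 in TKO and becomes called, while the calls of Bcl2l11 in Rb1KO and of Apaf1 in TKO-Ras are lost.

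Apaf1, the scaffold of the apoptosome and a textbook E2F target, was lower on the arrays labelled Rb1KO than in WT or TKO. Probe set 1452870_at gave 8.96, 9.14 and 9.55 in WT, 8.39, 8.31 and 8.48 in Rb1KO, 8.80, 8.96 and 9.37 in TKO and 8.83, 8.65 and 8.65 in TKO-Ras. The Rb1KO arrays lay below all others, and WT and TKO overlapped in part. Rb1KO was 1.77-fold lower than WT (-0.82, SE 0.17, limma adjusted p = 0.00448), and the call held whichever array was left out (-0.95 to -0.66). TKO exceeded Rb1KO 1.57-fold (0.65, SE 0.17, adjusted p = 0.0405), a call that was kept without TKO replicate 1 and lost without any other array of the pair (adjusted p = 0.0856 to 0.135). TKO-Ras was 1.42-fold lower than WT (-0.51, adjusted p = 0.0454). This call was lost without WT replicate 2 or 3 and without any TKO-Ras array (adjusted p = 0.0596 to 0.138), so it is marginal. TKO did not differ from WT beyond the spread (-0.17, 95% interval -0.54 to 0.20). The second probe set, 1450223_at, gave the same calls, with values of 6.58, 6.44 and 6.80 in WT, 6.10, 6.01 and 6.05 in Rb1KO, 6.54, 6.68 and 6.86 in TKO and 6.33, 6.29 and 6.16 in TKO-Ras.

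**Figure D3:**
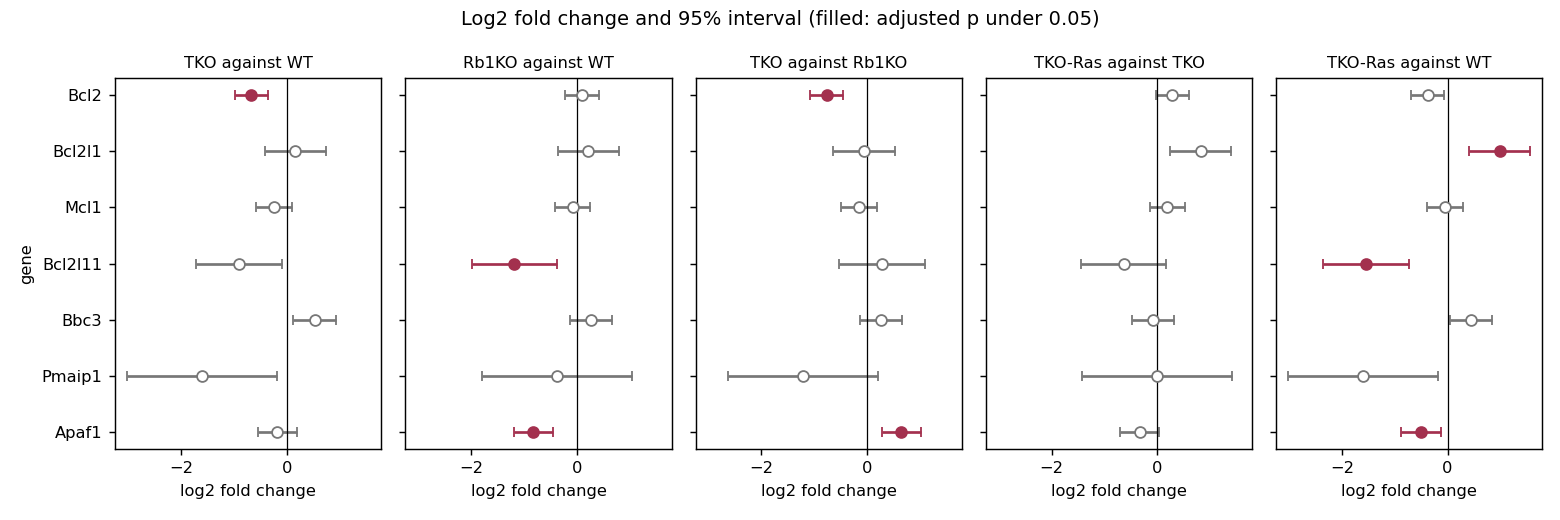
Log2 fold change with its 95% interval (x axis) of the 7 measured members (y axis) in the 5 comparisons; filled red points passed at an adjusted p under 0.05. The called members are Bcl2 (-0.67 in TKO against WT, -0.77 in TKO against Rb1KO), Bcl2l1 (0.99), Bcl2l11 (-1.18 and -1.54) and Apaf1 (-0.82, 0.65 and -0.51).

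Counted over the family, between 0 and 3 of the 7 members passed in a comparison. The comparisons with WT share the WT arrays, and those with TKO share the TKO arrays. In TKO against WT, none of 7 rose and 1, Bcl2, fell, beside 13.6% of all genes called higher and 9.9% called lower. In Rb1KO against WT, none rose and 2 (Apaf1 and Bcl2l11) fell, where 15.6% of genes were called higher and 12.3% lower. In TKO against Rb1KO, Apaf1 rose and Bcl2 fell, against shares of 5.92% higher and 3.63% lower among all genes. In TKO-Ras against TKO, limma called 0 of 7, with 3.19% of genes called higher and 4.17% lower, and 1 member, Bcl2l1, had an unadjusted p under 0.05. The unmoderated contrasts of a 1-way fit also called 0 there. In TKO-Ras against WT, Bcl2l1 rose and Bcl2l11 and Apaf1 fell, where 19.4% of genes were called higher and 14.3% lower. All 7 members were above background, and among the genes above background on at least 3 arrays the called shares in the 5 comparisons, in the order above, were 31.9%, 37.5%, 13.2%, 10.2% and 44.0%. Without WT replicate 3 the calls numbered 2, 2, 2, 1 and 3, with Pmaip1 in place of Bcl2l11 in Rb1KO and of Apaf1 in TKO-Ras against WT. With cyclic loess between arrays in place of the deposited scaling, the split of all genes called moved towards lower ones, from 2472 higher and 1802 lower to 2065 and 2179 in TKO, from 2833 and 2243 to 2170 and 2816 in Rb1KO, and from 3525 and 2601 to 2703 and 3043 in TKO-Ras, each against WT. With 7 genes, 1 member is a large step beside these shares. The median log2 difference of the members was -0.23, -0.08, -0.05, 0.00 and -0.38 in the same order, and that of all genes 0.05, 0.08, -0.03, 0.04 and 0.11.

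**Figure D4:**
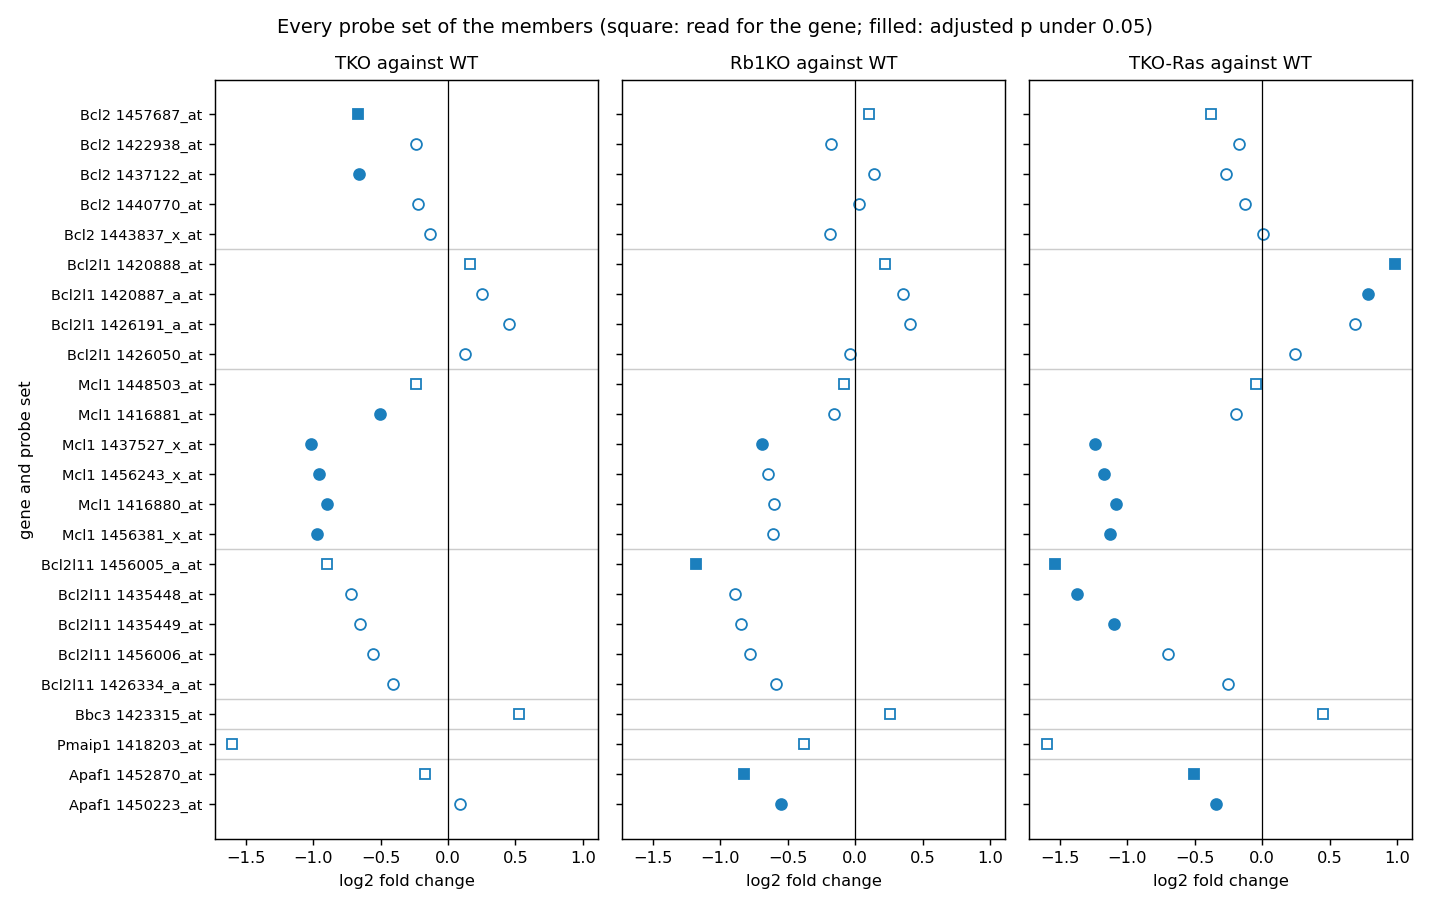
Log2 fold change (x axis) of every probe set of the members (y axis, 24 in all) in TKO, Rb1KO and TKO-Ras against WT; squares are the probe sets read for the genes and filled symbols passed at an adjusted p under 0.05. For Mcl1, 5 of 6 probe sets are called in TKO against WT while the square is not.

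On the probe sets read for the genes, Bcl2l11 and Pmaip1 alone had group means that spread over 1 log2 unit or more, 1.54 and 1.60 between the highest and the lowest group. Among 12628 genes above background, those whose pattern lay closest to Bcl2l11 over the 12 arrays were Tbc1d24, Tbc1d2b and Tln2, with mean absolute differences of 0.17, 0.17 and 0.18 log2 units after centring. Each of them was highest on WT replicate 3, at 9.12, 9.89 and 10.16. That array was among the 12 used to choose them, so this follows from the choice. Those closest to Pmaip1 were Acta1, Foxs1 and Vamp5, with differences of 0.29, 0.35 and 0.35. Each of these read lower on WT replicate 3, at 6.44, 6.02 and 6.9995, than on WT replicates 1 and 2, which likewise follows from the choice. Acta1 is also on the list of muscle markers, whose mean over 8 genes was 5.06, 5.17 and 4.79 on the WT arrays, 4.95 to 5.08 in Rb1KO, 4.83 to 4.89 in TKO and 4.80 to 4.94 in TKO-Ras. This mean includes Acta1 itself, so it is not a separate reading of the list. The median difference of the 8 genes from WT was 0.07 in TKO, 0.06 in Rb1KO and 0.09 in TKO-Ras. Of that list, 3 of 8 were above background on all arrays of each group, and its part in the pattern of Pmaip1 was not tested.

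The other genes of the pathway were described from 8 lists of 61 genes, of which 52 had a probe set. The others were not analysed here. In TKO against WT, 15 of 52 rose and 2 fell, with a median of 0.29. In Rb1KO against WT, 12 rose and 5 fell (median -0.01), and in TKO against Rb1KO 5 rose and 2 fell (median 0.09). In TKO-Ras against TKO, 1 rose and 5 fell (median 0.03), and in TKO-Ras against WT 11 rose and 6 fell (median 0.15). In this order, 17, 17, 7, 6 and 17 of the 52 were called in either direction. Among all genes above background on at least 3 arrays, the called shares were 31.9%, 37.5%, 13.2%, 10.2% and 44.0%. Of the 52 genes, 4 were at background on each array, so these shares are the closer match than those of all genes given above.

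Among the relatives of the members, the pro-survival gene Bcl2l2 (Bcl-w) fell against WT in TKO (-0.61), Rb1KO (-1.09) and TKO-Ras (-0.83) (limma adjusted p = 0.00208, 3.68e-05 and 1.82e-04). The effector relative Bok rose against WT in the same groups, by 1.02, 1.13 and 0.99 (adjusted p = 0.0384, 0.0214 and 0.0329). Without WT replicate 3 the differences of Bok were 0.55, 0.66 and 0.52 and still passed, but other alternatives lost these calls (adjusted p up to 0.145, 0.0898 and 0.116). Bcl2l12 rose in TKO (0.42, adjusted p = 0.0450), a call lost in 9 of 16 alternatives. Bcl2l13 rose in TKO by 0.50 and also passed as higher than WT in Rb1KO and TKO-Ras. Its means were 7.64 in WT, 8.36 in Rb1KO, 8.14 in TKO and 8.30 in TKO-Ras. Bid, the BH3-only protein that caspase-8 cleaves, rose in TKO (0.68) and TKO-Ras (0.62), and each call was lost in 4 of 16 alternatives. The hypoxia-inducible BH3-only gene Bnip3 was higher in TKO than in Rb1KO (1.87, adjusted p = 0.0384), a call lost in 8 of 17 alternatives. The effector Bak1 was among the genes that did not pass in TKO, Rb1KO or TKO-Ras against WT.

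Downstream of the mitochondrion, Cycs, the gene of cytochrome c, rose in Rb1KO (0.71) and TKO-Ras (0.76) against WT, and the first of these calls was lost in 8 of 16 alternatives, among them without WT replicate 3 (0.42, adjusted p = 0.0688). Casp2 rose in Rb1KO (0.90, adjusted p = 6.87e-04) and was lower in TKO than in Rb1KO (-0.59). Birc5 (survivin), which also serves in mitosis, rose against WT in TKO (1.75), Rb1KO (1.87) and TKO-Ras (1.71) (adjusted p = 4.91e-05, 2.51e-05 and 3.37e-05). Dffb, the nuclease that cuts DNA in dying cells, fell against WT in TKO (-2.05), Rb1KO (-1.64) and TKO-Ras (-1.74) (adjusted p = 0.0188, 0.0467 and 0.0308). Its WT arrays ranged from 6.93 to 9.57 and overlapped with those of Rb1KO and TKO-Ras, and the call in TKO was lost in 5 of 16 alternatives (lowest and highest difference -2.90 and -1.58). Htra2 (0.55), Aifm1 (0.42) and Vdac3 (0.55), genes of mitochondrial proteins, rose in TKO against WT, and the call of Htra2 was lost without WT replicate 3 (0.36, adjusted p = 0.0741). Against WT, Htra2 and Aifm1 also passed as higher in Rb1KO and TKO-Ras, and Vdac3 in Rb1KO. The calls of Aifm1 in TKO and of Vdac3 in Rb1KO were each lost in 4 of 15 alternatives. Htra2 averaged 9.11 in WT, 9.92 in Rb1KO, 9.65 in TKO and 10.16 in TKO-Ras. The means of Aifm1 in the same order were 10.30, 11.21, 10.72 and 10.86. The inhibitor Birc3 rose in TKO against WT (0.83) and fell in TKO-Ras against TKO (-1.11) on its brightest probe set, but its differences were -0.17 and 0.13 on the brightest probe set without a suffix.

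In the death receptor arm, Fas, the receptor for Fas ligand, fell in TKO-Ras against TKO (-2.82, limma adjusted p = 7.40e-05) and against WT (-2.13, adjusted p = 7.83e-05). Fadd, the adaptor of death receptors, rose in TKO (0.73), Rb1KO (0.52) and TKO-Ras (0.95) against WT. Among upstream regulators, E2f2 rose in TKO, Rb1KO and TKO-Ras against WT (0.94, 0.68 and 1.70), and E2f1 rose in them too (0.50, 0.67 and 0.74). The E2f1 call in TKO was lost in 4 of 16 alternatives. Foxo1, whose family's motif letters were found in a window of Bcl2l11 and of Bbc3, rose in TKO (0.64), fell in Rb1KO (-1.18) against WT, and fell in TKO-Ras against TKO (-0.92). Any part of Foxo1 in the levels of these 2 members was not tested. Myc passed narrowly in Rb1KO (1.58, adjusted p = 0.0473), with 0.80 without WT replicate 3, and lost the call in 9 of 15 alternatives.

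**Figure D5:**
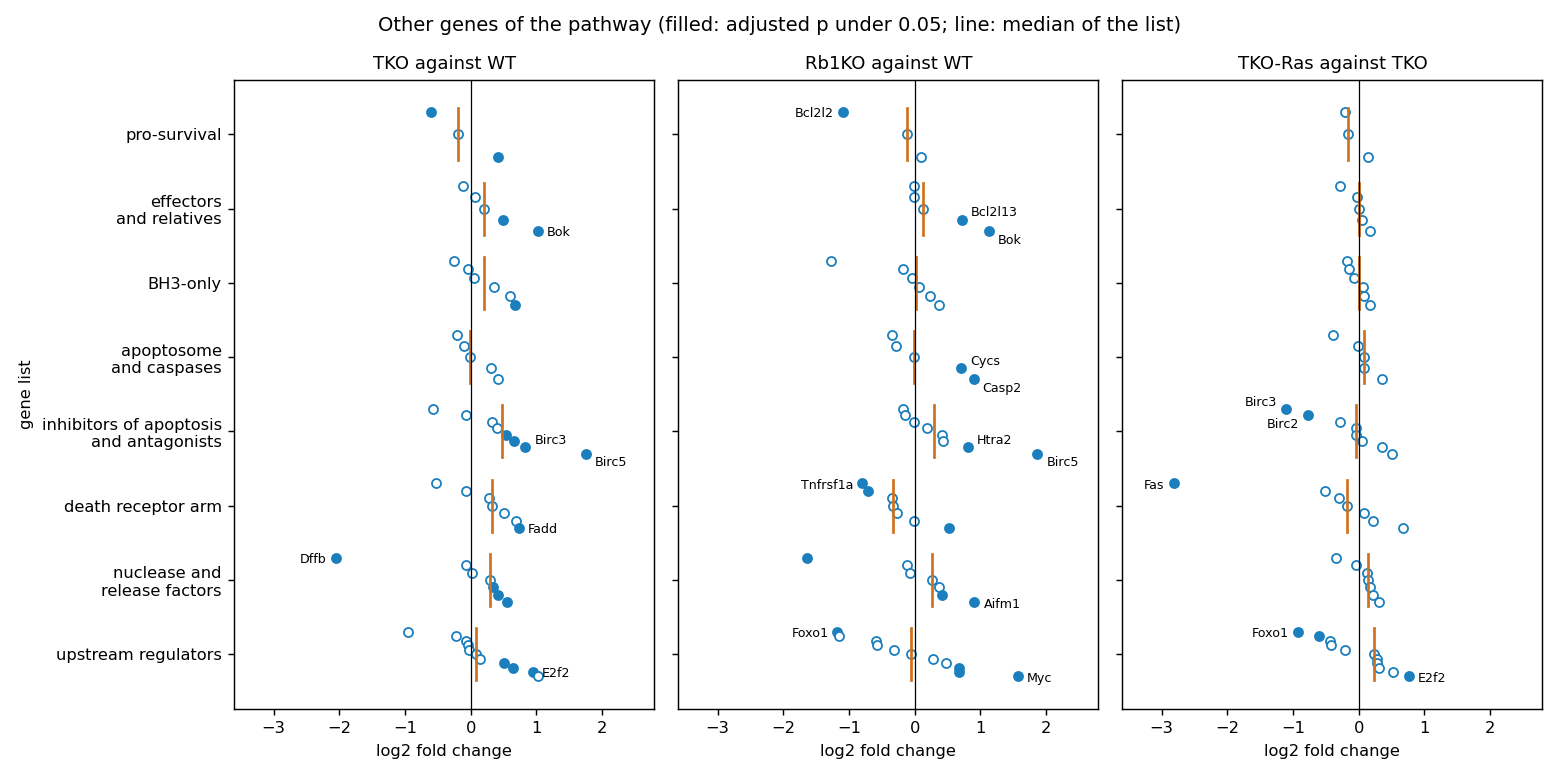
Log2 fold change (x axis) of the 52 other pathway genes by list (y axis) in TKO against WT, Rb1KO against WT and TKO-Ras against TKO; filled points passed at an adjusted p under 0.05 and the orange line is the median of a list. Fas stands lowest in TKO-Ras against TKO at -2.82, and Birc5 highest against WT in TKO (1.75) and Rb1KO (1.87).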

How the data were processed

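RNA of 4 groups of MEFs (WT, Rb1KO, TKO and TKO-Ras, 3 arrays each, 100 ng of total RNA) was measured on Affymetrix MOE430 2.0 arrays. The authors background-corrected, normalised and summarised the scans by RMA in Partek Genomics Suite 6.5. The deposited values were taken as log2, which their range of 2.18 to 14.92 fits, since the scale is not stated. RMA equalises the arrays, so a change shared by most transcripts would not be seen, and the number of arrays limits the precision.

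Of 45101 probe sets, 64 manufacturer controls were left out. Of the remaining 45037, 34945 carried 1 gene symbol, 932 several and 9160 none. Groups were compared with limma 3.58.1 (lmFit and eBayes) in R 4.3.3, with all 12 arrays in 1 fit (8 residual degrees of freedom) and 5 contrasts. P-values are 2-sided and adjusted by the Benjamini-Hochberg method over 45037 probe sets. The script was tested on simulated data. The members and lists were chosen with earlier results of these data known. All members are named. Genes named from the other lists were drawn from the up to 3 of each list and comparison with the largest difference that passed, without overlap of the groups and with the higher mean above background, and not all of them are printed. Bak1, and E2f1 and Dffb in comparisons where they fell outside this rule, were named after their values were seen. The genes most like a member are those with the smallest mean absolute difference after centring. Promoter windows are RefSeq, GRCm38.p6, and the build behind the array annotation is not given in the sources used here. Replicate numbers are shared between groups, but same-numbered arrays did not deviate together (correlations of deviations from -0.21 to 0.31), so no pairing was used. Alternatives were moderation with trend, unmoderated contrasts, array weights, a replicate block, only the compared groups, median centring, cyclic loess, a filter on dim probe sets, other choices of probe set and leaving out each array.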

Additional observations from a re-analysis of the deposited data

How the results depend on the processing

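Each difference was recomputed under 10 other settings and with each array left out. Over the 35 member differences this gave 574 values, of which 503 kept direction and side of the threshold, 27 lost the call, 19 gained it and 25 changed sign. The number of members called in TKO against WT, 1 in the report, was 2 with array weights, the replicate block, only the compared groups, centred arrays or the filter on dim probe sets. In Rb1KO against WT it was 1 and not 2 with unmoderated contrasts, only the compared groups, the mean of probe sets or probe sets without a suffix. In TKO against Rb1KO it was 1 and not 2 with unmoderated contrasts or the mean of probe sets, and 3 with only the compared groups. In TKO-Ras against TKO it was 1 and not 0 with array weights or only the compared groups. Leaving out an array in turn, the counts ranged from 1 to 2, 1 to 2, 1 to 2, 0 to 1 and 1 to 3 in the order of the report. In TKO-Ras against TKO the 1 came from leaving out WT replicate 3, an alternative chosen after seeing the data for the comparisons without WT.

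The signs that turned belonged to differences that had not passed, except for Birc3. They were Bcl2l1 with array weights in TKO against WT (-0.0572), Rb1KO against WT (-0.0645) and TKO against Rb1KO (0.0073, and 0.0126 with the mean of probe sets), Bcl2 with that mean in Rb1KO against WT (-0.0193), Pmaip1 in TKO-Ras against TKO (0.044 with array weights, 0.0137 with cyclic loess), Mcl1 in TKO-Ras against TKO with the mean of probe sets (-0.0483) and in TKO-Ras against WT with array weights (0.0506), and Birc3 without suffixed probe sets (-0.17 in TKO against WT, 0.13 in TKO-Ras against TKO). Leaving out 1 array, Bcl2l1 ranged from -0.17 to 0.40 in TKO against WT, -0.12 to 0.45 in Rb1KO against WT and -0.20 to 0.15 in TKO against Rb1KO. Pmaip1 ranged from -1.28 to 0.37 in Rb1KO against WT and -0.33 to 0.21 in TKO-Ras against TKO. Bcl2 in Rb1KO against WT ranged from -0.0526 to 0.24, Mcl1 from -0.21 to 0.0208 in Rb1KO against WT and -0.16 to 0.0521 in TKO-Ras against WT, Bcl2l11 in TKO against Rb1KO from -0.0193 to 0.47, and Bbc3 in TKO-Ras against TKO from -0.27 to 0.16. The cause of these turns was not tested.

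With the replicate block, Bbc3 in TKO against WT gained a call (0.53, adjusted p = 0.0425), and the block changed no other call of a member. Genes called in TKO-Ras against TKO were 1339 with all arrays, 2268 with array weights, 2144 without WT replicate 3 and 747 without TKO replicate 2. In TKO against Rb1KO they were 1738, and 2835 with array weights. The other pathway genes called fell from 17 to 10 (only the compared groups, or without TKO replicate 2), 11 (without TKO replicate 1) or 9 (no suffixed probe sets) in TKO against WT, from 17 to 11 (no suffixed probe sets, or without Rb1KO replicate 1) in Rb1KO against WT and from 17 to 10 (only the compared groups) or 11 (without TKO-Ras replicate 3) in TKO-Ras against WT. In TKO against Rb1KO they were 7, but 3 unmoderated, 11 with array weights and 2 to 11 with 1 array left out. In TKO-Ras against TKO they were 6, but 10 with array weights or without WT replicate 3. Centring the arrays on their medians moved the median difference of all genes to 0.11 in TKO against WT and 0.13 in TKO-Ras against WT.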
